A study of Homo sapiens with 9 samples.

Results

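The axon guidance genes described here are the ligands and receptors of the semaphorin, plexin, neuropilin, ephrin, Eph, Slit, Robo, netrin and UNC5 families. They were taken by gene symbol from the protein-coding genes of the count table, with no use of their levels, and came to 68 of 60676 genes, of which 19936 were protein coding. The choice of these families and of the tests was made with earlier results of these data known. There were 35 ligand genes and 33 receptor genes in 11 families. Their RNA was measured in RD cells, a long-established line from a human embryonal rhabdomyosarcoma, by poly(A) RNA sequencing in 3 groups of 3 libraries. The groups carried the hairpin shTRPS1#1, the hairpin shTRPS1#2 or the non-targeting hairpin shNT. All 9 libraries came from cells given 1 µM doxycycline, also those with shNT, and grown for 2 days in medium containing 10% fetal bovine serum. They were then switched to differentiation medium, with 2% horse serum, for 10 days. The question posed by the series is what depletion of TRPS1, a GATA-type zinc finger transcription factor, does to transcription in these cells. The labels do not say whether the libraries of a group came from separate cultures or clones, so each p-value rests on a spread between libraries that could be technical.

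Guidance ligands are secreted or held at the cell surface, and their receptors change the actin and microtubule cytoskeleton so that a growing axon or a moving cell is drawn in or turned away. Semaphorins signal through plexins, the secreted class with neuropilins as co-receptors, while ephrins bind Eph receptor tyrosine kinases, Slits bind Robo receptors, and netrins bind DCC, neogenin and the UNC5 receptors. Outside the nervous system the same families act in vessels, epithelia and skeletal muscle, where Eph and semaphorin signals take part in myoblast migration and in the placing of motor nerve endings.

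Library totals ran from 21965744 to 23289062 counts, and guidance genes took 0.376% to 0.407% of them. TRPS1, the targeted gene, averaged 57.8 ± 3.42 CPM (counts scaled to a common library size) with shTRPS1#1 and 57.4 ± 1.39 CPM with shTRPS1#2, against 73.5 ± 3.29 CPM with shNT (SD, n = 3 each). That left 78.6% and 78.1% of the shNT level, and the hairpins did not differ detectably in TRPS1 (log2 difference -0.01 ± 0.0457, interval -0.10 to 0.08, edgeR adjusted p = 0.913). Of 9 skeletal muscle markers 7 reached 1 CPM, with a summed level of 6749 to 6911 CPM with shTRPS1#1, 6469 to 6642 CPM with shTRPS1#2 and 5048 to 5243 CPM with shNT. By edgeR 6 of the 9 were called higher with shTRPS1#1 and 5 with shTRPS1#2, where 7.1% and 9.01% of all genes tested were called higher. MYF5 and MYF6 were too low to be tested. PAX7 was called higher with shTRPS1#1 but lower with shTRPS1#2 (103.2 and 69.8 CPM, against 86.3 CPM with shNT). Of 9 neuron markers 5 reached 1 CPM, led by SYT1, and their summed level was 80.3 to 82.5 CPM with shTRPS1#1, 87.4 to 93.9 CPM with shTRPS1#2 and 88.3 to 93.4 CPM with shNT. SLC17A7, a glutamate transporter gene of that list, was called lower with both hairpins by edgeR (15.1 and 16.3 CPM with shTRPS1#1 and shTRPS1#2, against 20.1 CPM with shNT), while RBFOX3 stayed under 0.1 CPM in every group. Among 6 markers of Schwann cells and glia, MBP alone reached 1 CPM and was called higher with shTRPS1#1 and lower with shTRPS1#2 (8.65 and 3.99 CPM, against 5.54 CPM with shNT), whereas SOX10 had no read. Among 6 endothelial markers TEK alone reached 1 CPM and was called higher with shTRPS1#2 (4.93 CPM with shTRPS1#1 and 5.79 CPM with shTRPS1#2, against 4.30 CPM with shNT), and KDR stayed under 0.1 CPM. None of 4 blood cell markers and 1 of 3 epithelial markers reached 1 CPM. The fibroblast list summed to 2213 to 2245 CPM with shTRPS1#1, 1882 to 1936 CPM with shTRPS1#2 and 1978 to 2062 CPM with shNT. Its members did not move together. DCN and LUM were called higher with both hairpins, COL1A1 higher with shTRPS1#1 and lower with shTRPS1#2, and PDGFRA lower with shTRPS1#1. How far these shifts in marker level went together with the changes in guidance genes was not tested, and in bulk RNA fewer cells of a kind and less RNA per cell cannot be told apart.

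Compared per length of transcript, 20 guidance genes averaged at least 10 RPKM (reads per kilobase of transcript, scaled to the library total) over the 9 libraries, 19 stood between 1 and 10 RPKM, and 29 were under 1 RPKM. The upper class held 9 ligands and 11 receptors. SEMA6B, a transmembrane semaphorin, had the highest mean level at 47.4 RPKM, ahead of its fellow ligands SEMA3A (31.3 RPKM), SEMA4C (29.7 RPKM) and SEMA3C (24.4 RPKM). The receptor genes with the highest levels were PLXNB2, which binds class 4 semaphorins such as SEMA4C, at 38.8 RPKM, the netrin receptor gene UNC5D at 26.5 RPKM, PLXNA1 at 25.99 RPKM and EPHA3 at 20.7 RPKM. Most families were carried by 1 or a few members. SLIT2 made up 98.9% of the summed Slit RPKM, NRP2 91.2% of the neuropilin sum and ROBO1, at 12.7 RPKM, 87.7% of the Robo sum. EPHB3 led the EphB receptors at 18.1 RPKM, EFNA5 the ephrin-A ligands at 14.7 RPKM, EFNB1 the ephrin-B ligands at 8.66 RPKM and NTN1 the netrins at 3.18 RPKM. These cells held RNA for both sides of the main pairings, with the exception of DCC, the classical netrin receptor, which had 2 reads in 1 shNT library and none in the others.

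**Figure D1:**
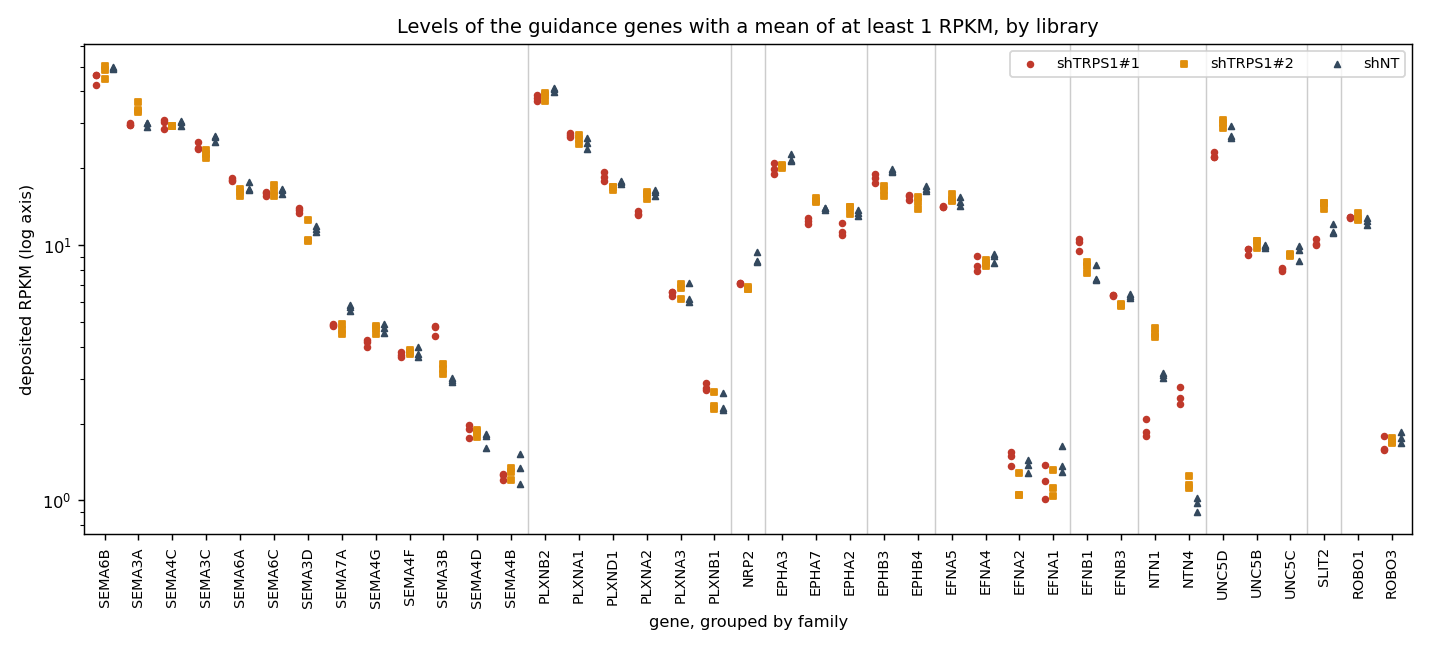
RPKM of the 39 guidance genes with a mean of at least 1 RPKM (logarithmic axis), 1 point for each library, coloured by hairpin. SEMA6B stands at the top with a mean of 47.4 RPKM, and for most genes the 3 groups lie close together compared with the range between genes.

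Of the 68 genes, 58 passed the filter on low counts and were tested with edgeR over all 17014 genes that passed. A gene counts as called at an adjusted p under 0.05. With shTRPS1#1 against shNT 26 guidance genes were called, or 44.8% of those tested, where 13.4% of all genes tested and 15.7% of the protein-coding ones were called. Of the 26, 12 were higher and 14 lower, and over all genes the shares were 7.1% higher and 6.33% lower. With shTRPS1#2 against shNT 13 were called, or 22.4%, which is close to the background of 18.9% of all genes and 22% of protein-coding genes. Of the 13, 7 were higher and 6 lower, and over all genes the shares were 9.01% and 9.87%. Between the hairpins, shTRPS1#2 against shTRPS1#1, 24 were called, or 41.4%, against 19.6% of all genes and 23.1% of protein-coding genes. Here 11 were higher and 13 lower, beside 8.9% and 10.7% of all genes. Counts favour well expressed genes: among the 35 guidance genes averaging at least 10 CPM, 19 (54.3%), 11 (31.4%) and 17 (48.6%) were called in these 3 comparisons, where 17.5%, 25.2% and 26% of the 9950 protein-coding genes at that level were.

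The changes went both ways and were mostly small. The median log2 fold change of the 58 was -0.0219 with shTRPS1#1 and -0.00793 with shTRPS1#2, beside 0.00113 and -0.00561 for all genes, while the median absolute change was 0.181 and 0.101, beside 0.086 and 0.0999 for all genes. Of the 32 ligands tested, shTRPS1#1 raised 7 and lowered 5, and shTRPS1#2 raised 3 and lowered 2. Of the 26 receptors tested, shTRPS1#1 raised 5 and lowered 9, and shTRPS1#2 raised 4 and lowered 4. With shTRPS1#1, 37.5% of these ligands and 53.8% of these receptors were called, beside 13.4% of all genes. With shTRPS1#2 the shares were 15.6% and 30.8%, beside 18.9% of all genes. Both comparisons use the same 3 shNT libraries, so their calls are not independent of each other. Leaving out 1 library moved some of these counts by more than 1.5 times: 7 instead of 12 genes were called higher with shTRPS1#1 without shTRPS1#1 replicate 1, and also 7 without shTRPS1#1 replicate 3, while 4 instead of 7 were called higher with shTRPS1#2 without shNT replicate 2.

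**Figure D2:**
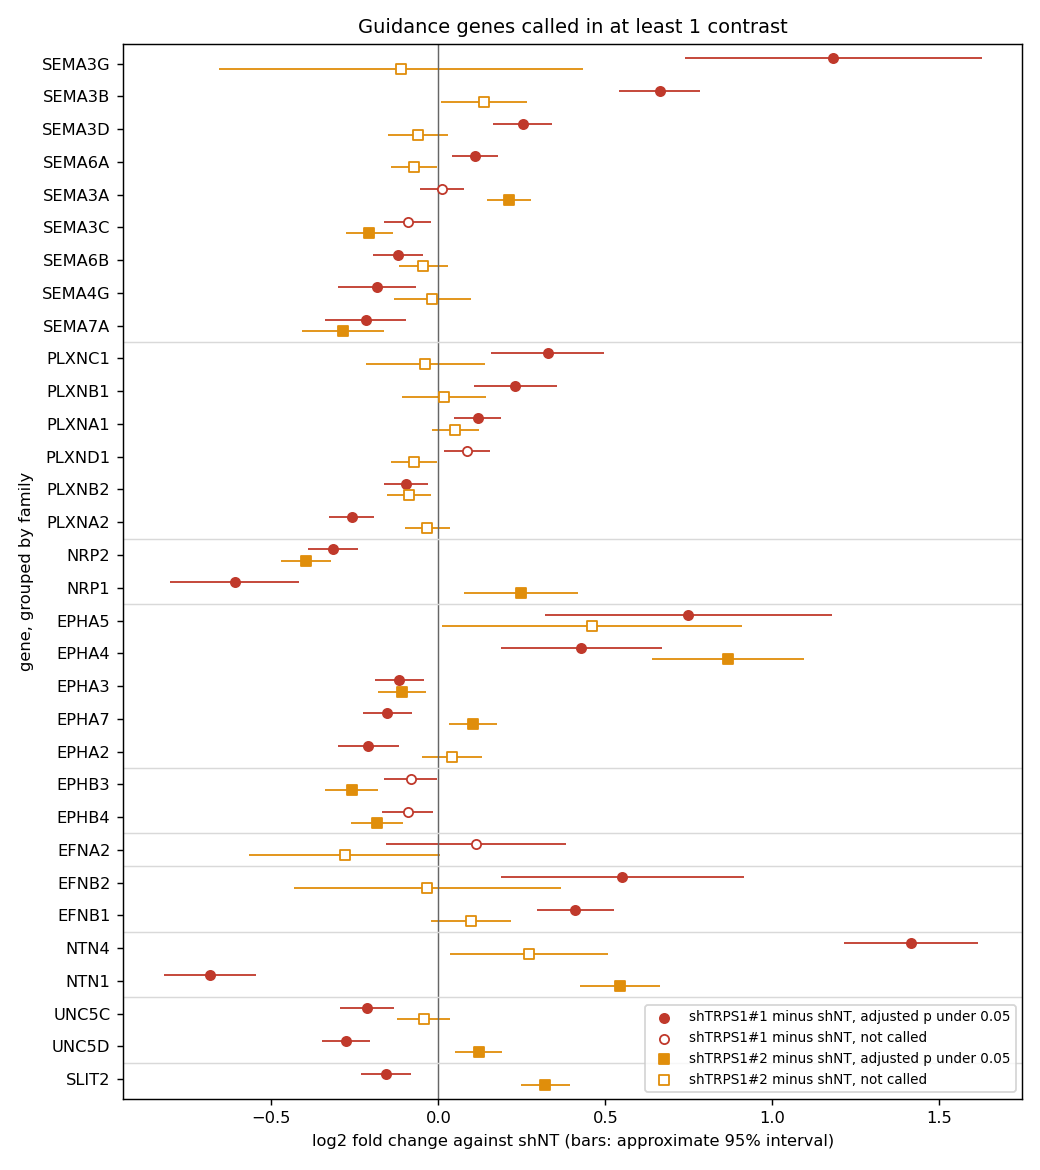
Log2 fold change of the 32 guidance genes called in at least 1 comparison (horizontal axis), with bars spanning the approximate 95% interval. Each hairpin is shown against shNT, and NTN4 with shTRPS1#1 lies farthest from 0.

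Called with both hairpins in the same direction were 4 genes, or 6.9% of those tested, which is close to the 5.83% of all genes tested (3.46% higher and 2.37% lower). EPHA4 was higher with both, and the receptor genes EPHA3 and NRP2 and the ligand gene SEMA7A were lower with both. The count of 4 became 2 without shTRPS1#1 replicate 1 and also 2 without shTRPS1#1 replicate 3. The promoters of these 4 genes are shown because they belong to the genes that moved the same way with both hairpins. Each runs 5′ to 3′ on the gene's own strand, from 250 bases before to 50 bases after the RefSeq start (GRCh38.p14). Capitals mark matches to the GATA words AGATAA or AGATAG or TGATAA or TGATAG, or to the E-box CAGCTG. Both strands were searched for these words, which are those of GATA factors and of myogenic factors such as MYOD1. EPHA4 lies at chr2:221574153-221574452 (minus strand), EPHA3 at chr3:89107371-89107670 (plus strand), NRP2 at chr2:205682251-205682550 (plus strand) and SEMA7A at chr15:74433909-74434208 (minus strand).
EPHA4: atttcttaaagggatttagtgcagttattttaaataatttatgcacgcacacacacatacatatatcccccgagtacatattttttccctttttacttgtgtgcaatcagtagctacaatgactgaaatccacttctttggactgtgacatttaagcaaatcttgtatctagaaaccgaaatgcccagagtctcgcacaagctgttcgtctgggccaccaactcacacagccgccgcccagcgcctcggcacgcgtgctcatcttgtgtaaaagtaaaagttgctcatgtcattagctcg
EPHA3: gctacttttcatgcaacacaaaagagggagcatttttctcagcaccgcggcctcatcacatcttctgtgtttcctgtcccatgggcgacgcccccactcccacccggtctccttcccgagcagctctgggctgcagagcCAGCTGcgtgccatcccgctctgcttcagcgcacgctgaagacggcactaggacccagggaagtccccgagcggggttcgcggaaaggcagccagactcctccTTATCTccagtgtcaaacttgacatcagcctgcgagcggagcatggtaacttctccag
NRP2: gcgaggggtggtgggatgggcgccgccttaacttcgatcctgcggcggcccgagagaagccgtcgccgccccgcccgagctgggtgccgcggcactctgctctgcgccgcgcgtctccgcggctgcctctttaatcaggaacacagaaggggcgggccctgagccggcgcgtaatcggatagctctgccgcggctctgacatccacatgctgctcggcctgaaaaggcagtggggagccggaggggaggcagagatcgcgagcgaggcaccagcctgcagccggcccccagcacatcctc
SEMA7A: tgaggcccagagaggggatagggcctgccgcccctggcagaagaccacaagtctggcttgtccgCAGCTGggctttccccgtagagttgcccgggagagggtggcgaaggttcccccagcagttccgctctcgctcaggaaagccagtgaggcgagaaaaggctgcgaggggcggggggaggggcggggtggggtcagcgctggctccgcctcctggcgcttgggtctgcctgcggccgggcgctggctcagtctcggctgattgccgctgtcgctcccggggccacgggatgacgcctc
The EPHA3 window holds 1 GATA word, read as TTATCT on this strand, and 1 E-box, and the SEMA7A window holds 1 E-box. Neither word is in the EPHA4 or the NRP2 window. G and C make up 43% of the EPHA4 window, 59.7% of the EPHA3 window and 70.0% of each of the NRP2 and SEMA7A windows, where the median is 58.7% over 35116 promoters.

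EPHA4 (ENSG00000116106, chromosome 2, 221418027 to 221574202, minus strand, GRCh38) encodes an Eph receptor that binds ephrins of both the A and the B class. It had 6.37, 5.40 and 6.37 CPM with shTRPS1#1 and 8.30, 7.73 and 8.57 CPM with shTRPS1#2, against 5.22, 3.36 and 4.90 CPM with shNT. Every library with either hairpin was above every shNT library, and those with shTRPS1#2 were above those with shTRPS1#1. The log2 fold change was 0.87 ± 0.116 (edgeR adjusted p = 6.24e-08) with shTRPS1#2 and 0.43 ± 0.123 (edgeR adjusted p = 0.0115) with shTRPS1#1, and 0.44 ± 0.109 (edgeR adjusted p = 0.00213) between the hairpins. The call with shTRPS1#1 was lost without shNT replicate 2, shTRPS1#1 replicate 1 and shTRPS1#1 replicate 3 (adjusted p 0.0599 to 0.213 by edgeR) and under DESeq2 (adjusted p = 0.0806). Limma on log2(RPKM + 0.1), log2(RPKM + 0.01) and log2(RPKM + 1) also lost the call with shTRPS1#1 (adjusted p 0.118 to 0.137). The call between the hairpins was lost under limma on log2(RPKM + 0.1) and log2(RPKM + 0.01) (adjusted p 0.0801 and 0.0921). At 0.826 RPKM over all libraries, its level was far under that of EPHA3.

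NRP2 (ENSG00000118257, chromosome 2, 205681990 to 205798133, plus strand) encodes a co-receptor for secreted semaphorins and for vascular growth factors. It had 99.6, 98.05 and 99.2 CPM with shTRPS1#1 and 92.8, 93.6 and 94.2 CPM with shTRPS1#2, against 130.1, 119 and 120.2 CPM with shNT. All 6 libraries with a TRPS1 hairpin were below the lowest shNT library, and the groups were tight. The log2 fold change was -0.32 ± 0.0376 (edgeR adjusted p = 4.23e-09) with shTRPS1#1 and -0.40 ± 0.0379 (edgeR adjusted p = 7.9e-12) with shTRPS1#2, and both calls held under every alternative that was run. SEMA7A (ENSG00000138623, chromosome 15, 74409289 to 74433958, minus strand) encodes a semaphorin anchored in the membrane by a lipid, which acts through PLXNC1 and integrins. It had 18.4, 18.7 and 18.6 CPM with shTRPS1#1 and 17.01, 17.6 and 18.5 CPM with shTRPS1#2, against 21.8, 21.97 and 20.9 CPM with shNT. The libraries with either hairpin were all below those with shNT, and the log2 fold change was -0.22 ± 0.0620 (edgeR adjusted p = 0.0107) with shTRPS1#1 and -0.29 ± 0.0627 (edgeR adjusted p = 0.000492) with shTRPS1#2. The first of these calls was lost without shNT replicate 2 (adjusted p = 0.0507 by edgeR) and under DESeq2 (adjusted p = 0.0829).

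EPHA3 (ENSG00000044524, chromosome 3, 89107524 to 89482134, plus strand) encodes a receptor for ephrin-A ligands and was the EphA gene with the highest RPKM. It had 126, 139 and 132 CPM with shTRPS1#1 and 133, 136 and 130.4 CPM with shTRPS1#2, against 149, 141 and 140.3 CPM with shNT. The hairpin libraries lay below the shNT libraries, by a margin that was small against the spread within the groups. For EPHA3 the log2 fold change was -0.12 ± 0.0373 (edgeR adjusted p = 0.0257) with shTRPS1#1 and -0.11 ± 0.0373 (edgeR adjusted p = 0.0322) with shTRPS1#2. Both calls were lost under limma with all 3 pseudocounts (adjusted p 0.0647 to 0.106). Without the filter on low counts the call with shTRPS1#2 was lost (adjusted p = 0.053 by edgeR). With shTRPS1#1 the call was lost without shNT replicate 1, shTRPS1#1 replicate 1 and shTRPS1#1 replicate 3 (adjusted p 0.0824 to 0.238 by edgeR) and under DESeq2 (adjusted p = 0.0588), and with shTRPS1#2 it was lost without shNT replicate 1, shTRPS1#2 replicate 1, shTRPS1#2 replicate 2 and shTRPS1#2 replicate 3 (adjusted p 0.0553 to 0.169 by edgeR) and under DESeq2 (adjusted p = 0.0639).

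**Figure D3:**
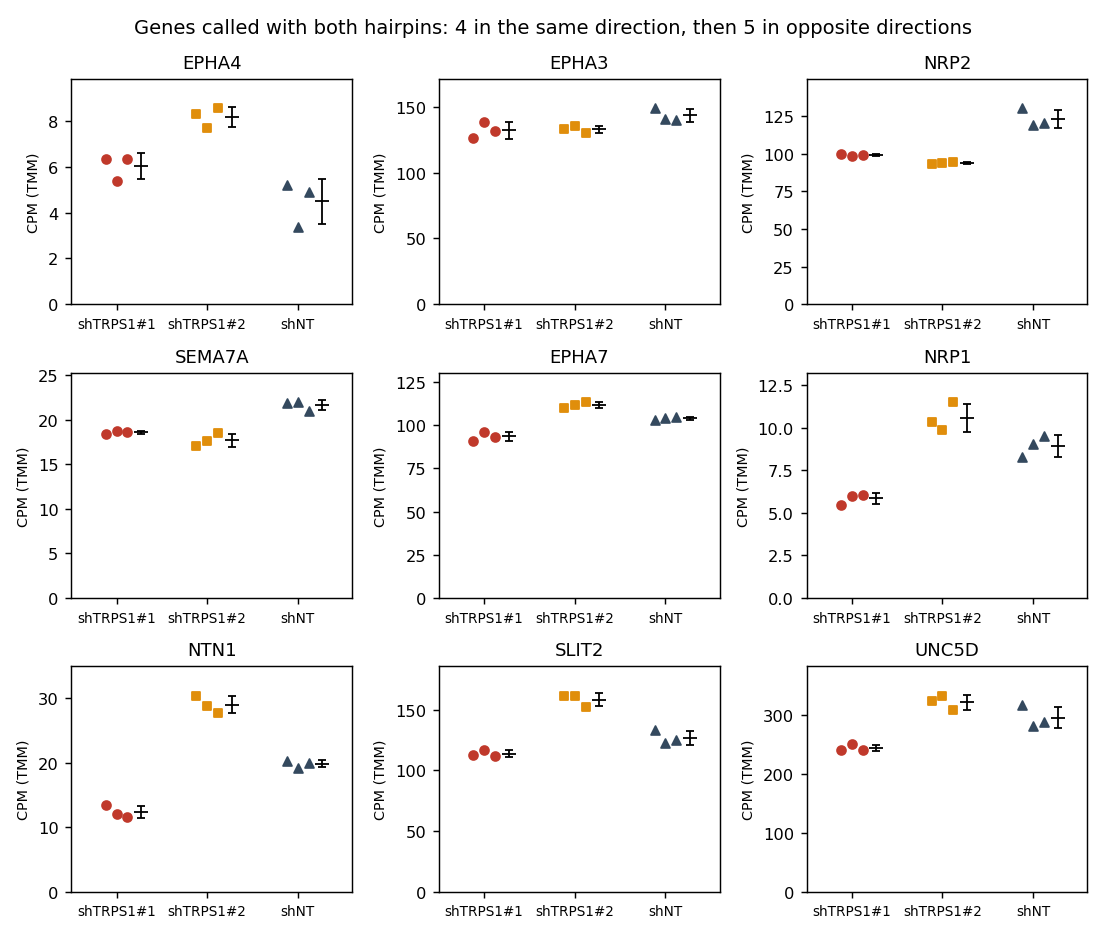
CPM in each library of the 9 guidance genes called with both hairpins (vertical axis, 1 panel for each gene, from 0), with shTRPS1#1, shTRPS1#2 and shNT in that order. Points are libraries and bars mean ± SD, and EPHA7, NRP1, NTN1, SLIT2 and UNC5D lie below shNT with shTRPS1#1 and above it, on average, with shTRPS1#2.

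In 5 genes the hairpins went opposite ways: the ligand genes NTN1 and SLIT2 and the receptor genes NRP1, UNC5D and EPHA7 were all called lower with shTRPS1#1 and higher with shTRPS1#2, a pattern of opposite calls that 1.02% of all genes tested had in either order. The count of 5 was 3 when replicate 1 or 3 of shNT, or replicate 1 or 2 of shTRPS1#2, was left out, and 2 without shNT replicate 2. In all 5 the libraries with shTRPS1#2 lay above those with shTRPS1#1, and this difference between the hairpins was called under every alternative.

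NTN1 (ENSG00000065320, chromosome 17, 9021542 to 9244000, plus strand) encodes netrin-1, the secreted ligand of DCC, neogenin and the UNC5 receptors. It had 13.5, 11.98 and 11.6 CPM with shTRPS1#1 and 30.4, 28.7 and 27.8 CPM with shTRPS1#2, against 20.3, 19.2 and 19.98 CPM with shNT. The 3 groups were fully separate. The log2 fold change was -0.68 ± 0.0706 (edgeR adjusted p = 7.68e-11) with shTRPS1#1 and 0.54 ± 0.0607 (edgeR adjusted p = 6.4e-10) with shTRPS1#2. The level with shTRPS1#2 exceeded that with shTRPS1#1 by 1.23 ± 0.0664 (edgeR adjusted p = 2.67e-20). SLIT2 (ENSG00000145147, chromosome 4, 20253260 to 20620561, plus strand), the secreted ligand of the Robo receptors, had 112, 117 and 112 CPM with shTRPS1#1 and 161, 161 and 152 CPM with shTRPS1#2, against 133, 122 and 125 CPM with shNT. Here too no group overlapped another. SLIT2 had a log2 fold change of -0.16 ± 0.0381 (edgeR adjusted p = 0.00214) with shTRPS1#1 and 0.32 ± 0.0372 (edgeR adjusted p = 1.96e-09) with shTRPS1#2, with a difference between the hairpins of 0.48 ± 0.0376 (edgeR adjusted p = 1.8e-14).

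NRP1 (ENSG00000099250, chromosome 10, 33177492 to 33336262, minus strand) encodes the co-receptor through which SEMA3A acts on plexins. It had 5.47, 5.99 and 6.06 CPM with shTRPS1#1 and 10.3, 9.88 and 11.5 CPM with shTRPS1#2, against 8.25, 9.02 and 9.49 CPM with shNT. The groups did not overlap, and the gap below shNT with shTRPS1#1 was wider than the gap above it with shTRPS1#2. Its log2 fold change was -0.61 ± 0.0985 (edgeR adjusted p = 4.17e-06) with shTRPS1#1 and 0.25 ± 0.0873 (edgeR adjusted p = 0.0395) with shTRPS1#2. Between the hairpins NRP1 differed by 0.86 ± 0.0955 (edgeR adjusted p = 6.66e-10). The call with shTRPS1#2 was lost without shNT replicate 1, shNT replicate 2, shTRPS1#2 replicate 1 and shTRPS1#2 replicate 3 (adjusted p 0.0614 to 0.206 by edgeR) and under DESeq2 (adjusted p = 0.174). Limma with all 3 pseudocounts also lost it (adjusted p 0.124 to 0.225), as did the fit without the filter on low counts (adjusted p = 0.0663 by edgeR). Both neuropilin genes were called lower with shTRPS1#1, and the sum of the family in RPKM was 7.57 ± 0.0286 with shTRPS1#1, 7.67 ± 0.135 with shTRPS1#2 and 9.64 ± 0.374 with shNT (SD, n = 3 each), carried mostly by NRP2.

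UNC5D (ENSG00000156687, chromosome 8, 35235457 to 35796550, plus strand) encodes a netrin receptor that also binds the adhesion protein FLRT2. It had 239.7, 250.1 and 241 CPM with shTRPS1#1 and 323, 332 and 308 CPM with shTRPS1#2, against 316, 281 and 288 CPM with shNT. All shTRPS1#1 libraries were below the rest, whereas 1 shNT library lay within the range of shTRPS1#2. For UNC5D the log2 fold change was -0.28 ± 0.0366 (edgeR adjusted p = 5.37e-08) with shTRPS1#1 and 0.12 ± 0.0361 (edgeR adjusted p = 0.0122) with shTRPS1#2. Between the hairpins UNC5D differed by 0.40 ± 0.0365 (edgeR adjusted p = 2.5e-12). Without shNT replicate 2, shNT replicate 3 or shTRPS1#2 replicate 2 the call with shTRPS1#2 was lost (adjusted p 0.0918 to 0.115 by edgeR). It was also lost under limma with all 3 pseudocounts (adjusted p 0.0832 to 0.0862). EPHA7 (ENSG00000135333, chromosome 6, 93240020 to 93419547, minus strand), a receptor for ephrin-A ligands, had 90.9, 96.02 and 93.5 CPM with shTRPS1#1 and 110.0, 111 and 113 CPM with shTRPS1#2, against 103, 104 and 105 CPM with shNT. The groups were separate by narrow margins. EPHA7 had a log2 fold change of -0.15 ± 0.0371 (edgeR adjusted p = 0.00224) with shTRPS1#1 and 0.10 ± 0.0365 (edgeR adjusted p = 0.0378) with shTRPS1#2, and 0.26 ± 0.0369 (edgeR adjusted p = 3.39e-07) between the hairpins. The call with shTRPS1#2 was lost without shNT replicate 1, shNT replicate 2, shNT replicate 3, shTRPS1#2 replicate 1, shTRPS1#2 replicate 2 and shTRPS1#2 replicate 3 (adjusted p 0.055 to 0.0964 by edgeR) and under DESeq2 (adjusted p = 0.0531). It was also lost without the filter on low counts (adjusted p = 0.0693 by edgeR).

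Another 17 genes (29.3% of those tested) were called with shTRPS1#1 alone and 4 (6.9%) with shTRPS1#2 alone, beside 6.58% and 12% of all genes tested, and for 13 and 3 of these the difference between the hairpins was called as well. The largest change of any guidance gene tested against shNT was that of NTN4 (ENSG00000074527, chromosome 12, 95657807 to 95791152, minus strand), a netrin of basement membranes that binds laminins. NTN4 had 10.5, 9.998 and 11.7 CPM with shTRPS1#1 and 4.76, 4.67 and 5.15 CPM with shTRPS1#2, against 4.08, 4.24 and 3.76 CPM with shNT. With shTRPS1#1 its libraries stood far above the other 6, and those with shTRPS1#2 lay only just above shNT. The log2 fold change was 1.41 ± 0.102 (edgeR adjusted p = 7.29e-16) with shTRPS1#1 and 0.27 ± 0.121 (edgeR adjusted p = 0.118) with shTRPS1#2. The log2 difference of shTRPS1#2 from shTRPS1#1 was -1.14 ± 0.0987 (edgeR adjusted p = 3.74e-13). NTN1 and NTN4 went opposite ways with shTRPS1#1, and the netrin sum was 5.22 ± 0.233 RPKM with shTRPS1#1, 6.56 ± 0.309 RPKM with shTRPS1#2 and 4.80 ± 0.163 RPKM with shNT (SD, n = 3 each).

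The NTN4 promoter is shown as that of the gene with the largest change, from chr12:95791106-95791405 (GRCh38.p14, minus strand), in the same window as those above. It holds no GATA word and no E-box, and 62.3% of it is G or C.
NTN4: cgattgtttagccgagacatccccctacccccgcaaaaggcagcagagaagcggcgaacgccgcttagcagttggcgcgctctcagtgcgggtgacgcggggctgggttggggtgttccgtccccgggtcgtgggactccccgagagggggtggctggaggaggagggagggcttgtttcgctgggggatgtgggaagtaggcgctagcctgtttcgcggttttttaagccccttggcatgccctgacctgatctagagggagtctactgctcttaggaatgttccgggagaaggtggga

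Of the secreted class 3 semaphorins, 3 rose with shTRPS1#1 and not detectably with shTRPS1#2. SEMA3B, a ligand of neuropilins, had 27.9, 25.4 and 27.8 CPM with shTRPS1#1 and 18.8, 18.1 and 19.5 CPM with shTRPS1#2, against 17.1, 16.7 and 17.5 CPM with shNT. The shTRPS1#1 libraries stood clear of both other groups, with a log2 fold change of 0.66 ± 0.0616 (edgeR adjusted p = 3.34e-12), against 0.14 ± 0.0657 (edgeR adjusted p = 0.153) with shTRPS1#2. SEMA3G, a ligand of NRP2 found mainly in vessels, was low, with 2.11, 2.25 and 1.95 CPM with shTRPS1#1 and 1.18, 0.808 and 0.577 CPM with shTRPS1#2, against 0.833, 1.19 and 0.743 CPM with shNT. Its libraries with shTRPS1#1 were all above the others, and the log2 fold change was 1.18 ± 0.226 (edgeR adjusted p = 8.49e-05) with shTRPS1#1, -0.11 ± 0.278 (edgeR adjusted p = 0.84) with shTRPS1#2 and -1.29 ± 0.232 (edgeR adjusted p = 2.28e-05) for shTRPS1#2 against shTRPS1#1. SEMA3D, which acts in vessel and heart patterning, had 113, 108 and 111 CPM with shTRPS1#1 and 84.1, 83.7 and 100.4 CPM with shTRPS1#2, against 95.97, 90.5 and 93.3 CPM with shNT. Its shTRPS1#2 replicate 3 stood apart from the other libraries of that group, and the log2 fold change was 0.25 ± 0.0446 (edgeR adjusted p = 2.33e-05) with shTRPS1#1 and -0.06 ± 0.0456 (edgeR adjusted p = 0.414) with shTRPS1#2. Without shTRPS1#2 replicate 3 SEMA3D was called lower with shTRPS1#2 (log2 fold change -0.15, edgeR adjusted p = 0.00793).

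SEMA3A and SEMA3C, the class 3 genes with the highest levels, changed with shTRPS1#2 instead. SEMA3A, the ligand that makes sensory growth cones collapse, had 275, 275 and 281 CPM with shTRPS1#1 and 307, 314 and 335 CPM with shTRPS1#2, against 279, 266 and 280.2 CPM with shNT. All libraries with shTRPS1#2 were above the other 6, and the log2 fold change was 0.21 ± 0.0340 (edgeR adjusted p = 3.45e-06) with shTRPS1#2 and 0.01 ± 0.0342 (edgeR adjusted p = 0.899) with shTRPS1#1. SEMA3C, which guides neural crest cells in the heart's outflow tract, had 147, 154 and 148 CPM with shTRPS1#1 and 138, 134 and 143 CPM with shTRPS1#2, against 163, 160.0 and 155 CPM with shNT. The shTRPS1#2 libraries were the lowest and the shNT libraries the highest, with a log2 fold change of -0.21 ± 0.0360 (edgeR adjusted p = 1.33e-05) with shTRPS1#2 and -0.09 ± 0.0357 (edgeR adjusted p = 0.0817) with shTRPS1#1. The difference between the hairpins, -0.11 ± 0.0362 (edgeR adjusted p = 0.0177), was lost without shTRPS1#1 replicate 2 and shTRPS1#2 replicate 2 (adjusted p 0.0917 to 0.177 by edgeR), while the call with shTRPS1#1 was gained without shTRPS1#1 replicate 2 (log2 fold change -0.12, edgeR adjusted p = 0.0386). Limma with all 3 pseudocounts also lost the SEMA3C difference between the hairpins (adjusted p 0.0873 to 0.0884). SEMA3A, SEMA3D and SEMA3E are neighbours on chromosome 7, with 502.8 kb between SEMA3A and SEMA3D and 306.7 kb between SEMA3E and SEMA3A, and against shNT SEMA3A was called with shTRPS1#2 and SEMA3D with shTRPS1#1. Between the hairpins both were called, SEMA3A with a difference of 0.20 ± 0.0340 (edgeR adjusted p = 9.23e-06) and SEMA3D with -0.31 ± 0.0449 (edgeR adjusted p = 3.32e-07).

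Of the 13 membrane-bound semaphorins, those of classes 4 to 7, 11 were tested, of which 4 were called with shTRPS1#1 (1 higher and 3 lower), 1 with shTRPS1#2 (SEMA7A, lower) and 2 between the hairpins. These were 36.4%, 9.09% and 18.2% of the 11, beside 13.4%, 18.9% and 19.6% of all genes tested. Their median absolute log2 fold change was 0.121 with shTRPS1#1 and 0.0455 with shTRPS1#2, and the values farthest from 0 were those of SEMA6D, which had a low level and was not called, at -0.57 ± 0.240 (edgeR adjusted p = 0.118) and -0.43 ± 0.235 (edgeR adjusted p = 0.226). SEMA6A, a ligand of class A plexins, had 202, 198 and 197 CPM with shTRPS1#1 and 175, 181 and 170.2 CPM with shTRPS1#2, against 194, 179 and 182 CPM with shNT. Its shTRPS1#1 libraries were the highest, and the log2 fold change was 0.11 ± 0.0352 (edgeR adjusted p = 0.027) with shTRPS1#1 and -0.07 ± 0.0355 (edgeR adjusted p = 0.16) with shTRPS1#2. Between the hairpins it differed by -0.18 ± 0.0354 (edgeR adjusted p = 8.14e-05). SEMA6B had 199.6, 182 and 200.3 CPM with shTRPS1#1 and 214, 209 and 191 CPM with shTRPS1#2, against 211, 209 and 213 CPM with shNT, and its log2 fold change was -0.12 ± 0.0378 (edgeR adjusted p = 0.0229) with shTRPS1#1 and -0.05 ± 0.0377 (edgeR adjusted p = 0.46) with shTRPS1#2. The call with shTRPS1#1 was lost for SEMA6A without shNT replicate 2, shNT replicate 3, shTRPS1#1 replicate 1 and shTRPS1#1 replicate 3 (adjusted p 0.054 to 0.178 by edgeR). Under limma with all 3 pseudocounts it was lost for both SEMA6A and SEMA6B (adjusted p 0.0926 to 0.113). For SEMA6B it was lost without shNT replicate 3 and shTRPS1#1 replicate 2 (adjusted p 0.0909 to 0.221 by edgeR) and under DESeq2 (adjusted p = 0.0631), and a difference between the hairpins was called without shTRPS1#2 replicate 3 (log2 difference 0.13, edgeR adjusted p = 0.0115). SEMA4G, a class 4 semaphorin, had 22.4, 21.9 and 21.2 CPM with shTRPS1#1 and 24.8, 25.3 and 23.4 CPM with shTRPS1#2, against 23.8, 24.8 and 25.8 CPM with shNT, with a log2 fold change of -0.18 ± 0.0593 (edgeR adjusted p = 0.0282) with shTRPS1#1 and 0.17 ± 0.0596 (edgeR adjusted p = 0.0417) for shTRPS1#2 against shTRPS1#1. These calls were lost with shTRPS1#1 without shNT replicate 2, shNT replicate 3, shTRPS1#1 replicate 2 and shTRPS1#1 replicate 3 (adjusted p 0.0535 to 0.145 by edgeR) and under DESeq2 (adjusted p = 0.146), and between the hairpins without shTRPS1#1 replicate 1, shTRPS1#1 replicate 2, shTRPS1#1 replicate 3, shTRPS1#2 replicate 1 and shTRPS1#2 replicate 2 (adjusted p 0.0522 to 0.169 by edgeR) and under DESeq2 (adjusted p = 0.14). Both SEMA4G calls were also lost without the filter on low counts (adjusted p 0.0574 and 0.0802 by edgeR). In GENCODE 29, 1170 of the 5253 exon bases of SEMA4G overlap MRPL43 on the opposite strand, and the strand setting of the counting is not given in the sources used here, so reads of these genes cannot be told apart there.

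The ephrin-B ligands are membrane proteins that signal in both the Eph-bearing cell and their own. EFNB1 had 35.1, 31.5 and 34.2 CPM with shTRPS1#1 and 28.3, 27.4 and 25.5 CPM with shTRPS1#2, against 24.2, 24.1 and 27.6 CPM with shNT, with every shTRPS1#1 library above all others. Its log2 fold change was 0.41 ± 0.0588 (edgeR adjusted p = 3.56e-07) with shTRPS1#1 and 0.10 ± 0.0609 (edgeR adjusted p = 0.302) with shTRPS1#2. Between the hairpins EFNB1 differed by -0.31 ± 0.0583 (edgeR adjusted p = 4.77e-05). EFNB2, the arterial ephrin, had 2.96, 1.89 and 2.43 CPM with shTRPS1#1 and 1.72, 1.39 and 1.73 CPM with shTRPS1#2, against 1.67, 1.81 and 1.49 CPM with shNT. Its level was low and the shTRPS1#1 libraries were widely spread, and the log2 fold change was 0.55 ± 0.186 (edgeR adjusted p = 0.0385) with shTRPS1#1 and -0.58 ± 0.188 (edgeR adjusted p = 0.0205) for shTRPS1#2 against shTRPS1#1. The first call was lost without shNT replicate 1, shNT replicate 2, shNT replicate 3, shTRPS1#1 replicate 1 and shTRPS1#1 replicate 3 (adjusted p 0.0521 to 0.294 by edgeR) and under DESeq2 (adjusted p = 0.244), and the other without shTRPS1#1 replicate 1, shTRPS1#1 replicate 3 and shTRPS1#2 replicate 2 (adjusted p 0.0546 to 0.203 by edgeR) and under DESeq2 (adjusted p = 0.132). Limma with all 3 pseudocounts lost both (adjusted p 0.0694 to 0.137). EFNB3 was not called. By edgeR 0 of the 5 ephrin-A genes were called against shNT with either hairpin, beside 13.4% and 18.9% of all genes. Against shNT there were 0 at an unadjusted p under 0.05, and 0 called by DESeq2 or limma on log2(RPKM + 0.1). With 5 genes a count of 0 cannot be told apart from those shares. EFNA5, the ephrin-A gene with the highest level, had 81.8, 81.9 and 81.9 CPM with shTRPS1#1 and 85.4, 86.2 and 90.5 CPM with shTRPS1#2, against 85.1, 87.7 and 82.02 CPM with shNT, with a log2 fold change of -0.05 ± 0.0392 (interval -0.13 to 0.02) with shTRPS1#1 and 0.04 ± 0.0389 (interval -0.04 to 0.12) with shTRPS1#2.

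Among the Eph receptors, EPHA2, EPHA5, EPHB3 and EPHB4 were called with 1 hairpin each. EPHA2, which binds ephrin-A1 and is abundant in many tumours, had 50.9, 45.4 and 47.04 CPM with shTRPS1#1 and 57.98, 54.8 and 57.8 CPM with shTRPS1#2, against 53.95, 54.8 and 57.1 CPM with shNT. The shTRPS1#1 libraries were the lowest, and the log2 fold change was -0.21 ± 0.0463 (edgeR adjusted p = 0.000671) with shTRPS1#1 and 0.04 ± 0.0453 (edgeR adjusted p = 0.606) with shTRPS1#2. Between the hairpins it differed by 0.25 ± 0.0463 (edgeR adjusted p = 3.76e-05). EPHB3, a receptor for ephrin-B ligands, had 83.5, 79.9 and 86.98 CPM with shTRPS1#1 and 74.4, 76.9 and 70.4 CPM with shTRPS1#2, against 88.6, 86.7 and 89.98 CPM with shNT. Here the shTRPS1#2 libraries were the lowest, and the log2 fold change was -0.26 ± 0.0409 (edgeR adjusted p = 2.22e-06) with shTRPS1#2, -0.08 ± 0.0403 (edgeR adjusted p = 0.191) with shTRPS1#1 and -0.18 ± 0.0412 (edgeR adjusted p = 0.00108) between the hairpins. EPHB4, the venous receptor for ephrin-B2, had 102, 97.4 and 101 CPM with shTRPS1#1 and 89.2, 98.9 and 94.2 CPM with shTRPS1#2, against 107, 104 and 109.8 CPM with shNT, with a log2 fold change of -0.18 ± 0.0393 (edgeR adjusted p = 0.000362) with shTRPS1#2 and -0.09 ± 0.0390 (edgeR adjusted p = 0.121) with shTRPS1#1. Between the hairpins EPHB4 differed by -0.09 ± 0.0396 (edgeR adjusted p = 0.101). EPHA5 had only 1.43, 1.62 and 2.04 CPM with shTRPS1#1 and 1.32, 1.44 and 1.42 CPM with shTRPS1#2, against 1.01, 1.02 and 1.01 CPM with shNT, and a log2 fold change of 0.75 ± 0.219 (edgeR adjusted p = 0.0135) with shTRPS1#1 that was lost without shTRPS1#1 replicate 3 (adjusted p = 0.138 by edgeR) and under DESeq2 (adjusted p = 0.132). Limma with all 3 pseudocounts also lost the EPHA5 call (adjusted p 0.0611 to 0.108). With shTRPS1#2 EPHA5 stood at 1.38 times the shNT level, with every library above those of shNT, but was not called. Between the hairpins it was not called either, at a fold change of 0.819 for shTRPS1#2 against shTRPS1#1. The summed EphB level was 33.9 ± 0.976 RPKM with shTRPS1#1 and 31.2 ± 1.18 RPKM with shTRPS1#2, against 36.3 ± 0.632 RPKM with shNT (SD, n = 3 each).

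Of 8 plexins tested, the signalling receptors of the semaphorins, 5 were called by edgeR with shTRPS1#1 against shNT, 3 higher and 2 lower, or 62.5% beside 13.4% of all genes, but 2 by DESeq2 and 1 by limma on log2(RPKM + 0.1). With shTRPS1#2 against shNT the count was 0 by edgeR, beside 18.9% of all genes, and 0 by DESeq2 and by limma at that pseudocount. At an unadjusted p under 0.05 there were 2 in that comparison. Between the hairpins the count was 4 by edgeR (50%, beside 19.6% of all genes) and 3 each by DESeq2 and limma. PLXNA2, a receptor for class 6 semaphorins and, with neuropilins, for class 3, had 189, 184 and 183 CPM with shTRPS1#1 and 219, 224 and 209 CPM with shTRPS1#2, against 228, 215 and 224 CPM with shNT. All shTRPS1#1 libraries were below the others, and the log2 fold change was -0.26 ± 0.0346 (edgeR adjusted p = 6.27e-08) with shTRPS1#1, -0.03 ± 0.0343 (edgeR adjusted p = 0.572) with shTRPS1#2 and 0.23 ± 0.0346 (edgeR adjusted p = 1.16e-06) between the hairpins. PLXNC1, the receptor for SEMA7A, had 9.91, 10.04 and 10.1 CPM with shTRPS1#1 and 7.89, 7.55 and 7.86 CPM with shTRPS1#2, against 8.29, 7.74 and 7.91 CPM with shNT. Its shTRPS1#1 libraries were tightly grouped above the rest, with a log2 fold change of 0.33 ± 0.0859 (edgeR adjusted p = 0.00499) with shTRPS1#1, which was lost under DESeq2 (adjusted p = 0.0651), and -0.37 ± 0.0868 (edgeR adjusted p = 0.00126) between the hairpins. The PLXNC1 call with shTRPS1#1 was also lost under limma on log2(RPKM + 0.1) and log2(RPKM + 0.01) (adjusted p 0.0673 and 0.0765). PLXNB1, the receptor for SEMA4D, had 28.5, 27.1 and 26.8 CPM with shTRPS1#1 and 25.9, 22.9 and 22.2 CPM with shTRPS1#2, against 25.8, 22.2 and 22.1 CPM with shNT. Its log2 fold change was 0.23 ± 0.0629 (edgeR adjusted p = 0.00713) with shTRPS1#1, and -0.21 ± 0.0630 (edgeR adjusted p = 0.0108) for shTRPS1#2 against shTRPS1#1.

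The PLXNB1 calls were lost with shTRPS1#1 without shNT replicate 2, shNT replicate 3 and shTRPS1#1 replicate 1 (adjusted p 0.0549 to 0.0728 by edgeR) and under DESeq2 (adjusted p = 0.0509), and between the hairpins without shTRPS1#1 replicate 1, shTRPS1#2 replicate 2 and shTRPS1#2 replicate 3 (adjusted p 0.07 to 0.0868 by edgeR) and under DESeq2 (adjusted p = 0.0597). PLXNA1, a partner of neuropilin 1, had 302, 290.4 and 299 CPM with shTRPS1#1 and 294, 286 and 271 CPM with shTRPS1#2, against 287, 258 and 277 CPM with shNT and a log2 fold change of 0.12 ± 0.0357 (edgeR adjusted p = 0.0178) with shTRPS1#1, lost without shNT replicate 2, shTRPS1#1 replicate 1 and shTRPS1#1 replicate 3 (adjusted p 0.0684 to 0.227 by edgeR). Limma with all 3 pseudocounts lost the PLXNA1 call and both PLXNB1 calls (adjusted p 0.133 to 0.149). PLXNB2, the plexin with the highest level, had 283, 275 and 270.1 CPM with shTRPS1#1 and 281, 286 and 265 CPM with shTRPS1#2, against 300.1, 288 and 298 CPM with shNT. Its log2 fold change of -0.10 ± 0.0337 (edgeR adjusted p = 0.0492) with shTRPS1#1 stood beside -0.09 ± 0.0337 (edgeR adjusted p = 0.0561) with shTRPS1#2, and so fell on either side of the threshold at nearly the same size. The first was lost without shNT replicate 1, shNT replicate 3, shTRPS1#1 replicate 2, shTRPS1#1 replicate 3, shTRPS1#2 replicate 1 and shTRPS1#2 replicate 2 (adjusted p 0.0568 to 0.231 by edgeR) and under DESeq2 (adjusted p = 0.0667). Limma with all 3 pseudocounts lost that call as well (adjusted p 0.0605 to 0.0612). It was also lost with RLE factors, without the filter on low counts and at a mean of at least 1 CPM (adjusted p 0.0551 to 0.0662 by edgeR). With shTRPS1#2 PLXNB2 was called without shNT replicate 2 (log2 fold change -0.10, edgeR adjusted p = 0.0499). PLXND1, a receptor for SEMA3E, was called only between the hairpins, with 189.7, 174 and 182 CPM with shTRPS1#1 and 164, 165 and 159.6 CPM with shTRPS1#2, against 173, 168 and 173 CPM with shNT. The log2 difference of shTRPS1#2 from shTRPS1#1 was -0.16 ± 0.0352 (edgeR adjusted p = 0.000549), and without shTRPS1#1 replicate 2 PLXND1 was also called higher with shTRPS1#1 than with shNT (log2 fold change 0.12, edgeR adjusted p = 0.0284).

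Of the netrin receptors other than UNC5D, UNC5C had 87.2, 86.5 and 85.3 CPM with shTRPS1#1 and 97.1, 98.5 and 95.8 CPM with shTRPS1#2, against 106, 92.05 and 102 CPM with shNT. Its shTRPS1#1 libraries were the lowest and tightly grouped, with a log2 fold change of -0.21 ± 0.0411 (edgeR adjusted p = 9.22e-05) with shTRPS1#1, -0.04 ± 0.0406 (edgeR adjusted p = 0.518) with shTRPS1#2 and 0.17 ± 0.0413 (edgeR adjusted p = 0.00172) between the hairpins. UNC5B was not called, at 65.1 ± 2.14 CPM with shTRPS1#1, 69.3 ± 2.75 CPM with shTRPS1#2 and 67.5 ± 0.769 CPM with shNT. The summed UNC5 level was 39.9 ± 0.315 RPKM with shTRPS1#1, 49.1 ± 1.46 RPKM with shTRPS1#2 and 46.6 ± 2.26 RPKM with shNT (SD, n = 3 each). Of the 3 Robo genes tested, 0 were called in any comparison by edgeR, DESeq2 or limma on log2(RPKM + 0.1), with 0 at an unadjusted p under 0.05. Of all genes tested, 13.4%, 18.9% and 19.6% were called by edgeR in the 3 comparisons. With 3 genes a count of 0 cannot be told apart from those shares. ROBO1, the Robo gene with the highest level, had 143, 143 and 142 CPM with shTRPS1#1 and 139, 148 and 137 CPM with shTRPS1#2, against 141, 132 and 137 CPM with shNT. Its libraries overlapped between shTRPS1#2 and shNT, and the log2 fold change was 0.06 ± 0.0363 (interval -0.01 to 0.13) with shTRPS1#1 and 0.05 ± 0.0364 (interval -0.02 to 0.12) with shTRPS1#2.

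**Figure D4:**
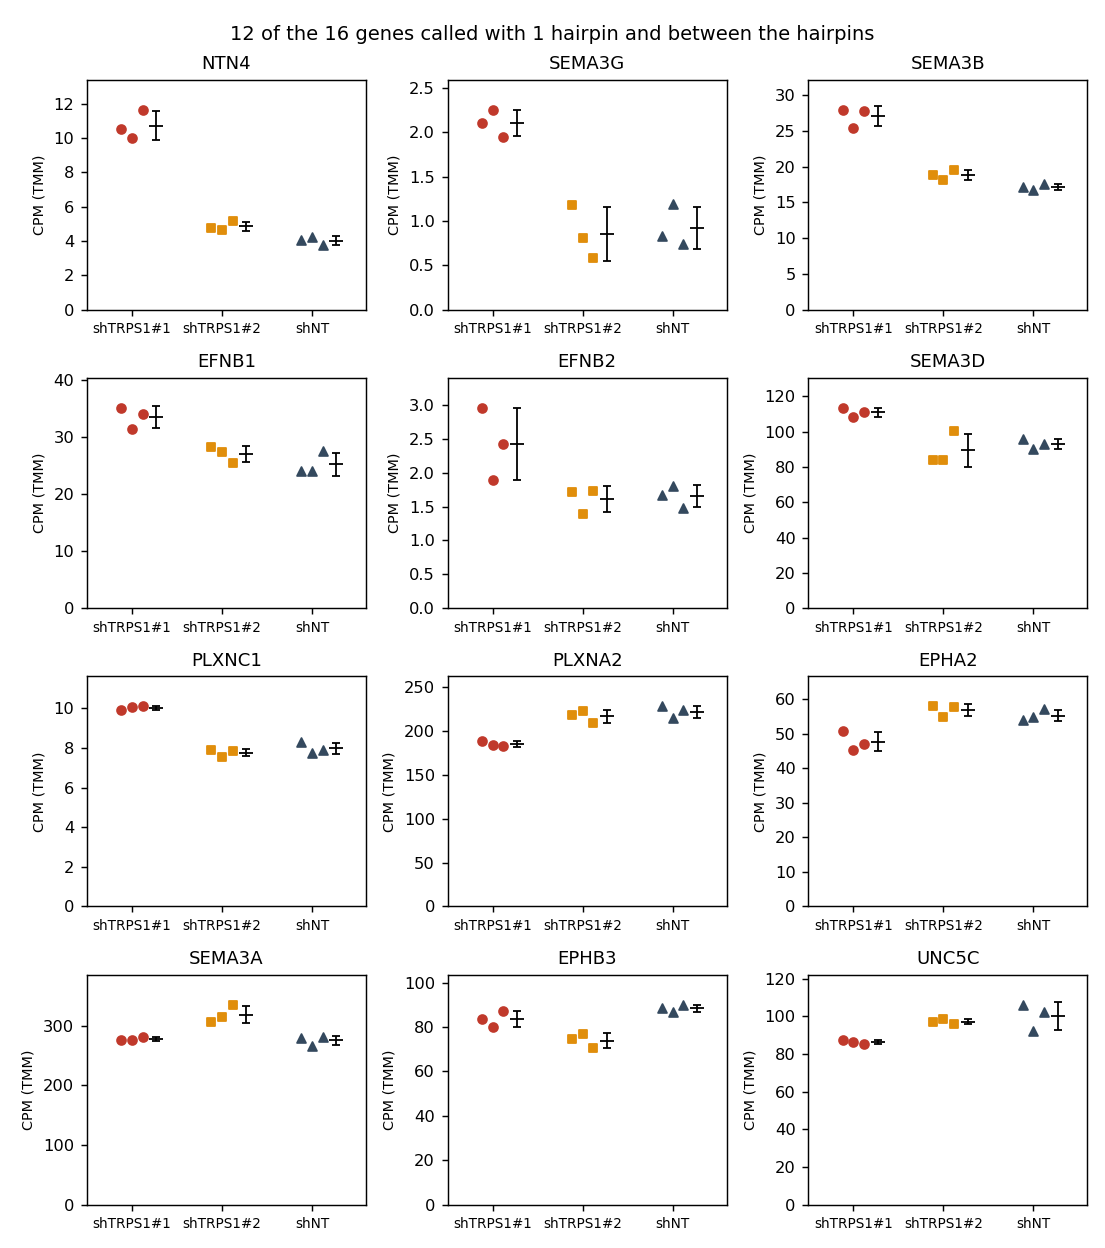
CPM in each library of 12 of the 16 guidance genes called with 1 hairpin against shNT and also between the hairpins (vertical axis, 1 panel for each gene, from 0), with shTRPS1#1, shTRPS1#2 and shNT in that order. Points are libraries and bars mean ± SD, and the 3 libraries with shTRPS1#1 stand apart in NTN4, SEMA3G, SEMA3B and EFNB1.

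EFNA2 was the other gene called only between the hairpins. It had 3.77, 3.33 and 3.64 CPM with shTRPS1#1 and 2.54, 3.10 and 2.53 CPM with shTRPS1#2, against 3.11, 3.32 and 3.50 CPM with shNT, and shTRPS1#2 differed from shTRPS1#1 by -0.39 ± 0.144 (edgeR adjusted p = 0.046), which was lost without shNT replicate 2, shTRPS1#1 replicate 1, shTRPS1#1 replicate 3, shTRPS1#2 replicate 1 and shTRPS1#2 replicate 3 (adjusted p 0.0529 to 0.155 by edgeR) and under DESeq2 (adjusted p = 0.209). The EFNA2 call was also lost with upper-quartile factors, without the filter on low counts and in a fit of the 6 libraries compared (adjusted p 0.0507 to 0.0892 by edgeR). In 26 of the 58 genes tested no comparison gave a call. They include SEMA4C, SEMA6C, EFNA5, ROBO1 and UNC5B, all with a mean near or above 10 RPKM, and the small cluster of EFNA4, EFNA3 and EFNA1 on chromosome 1, with gaps of 9.3 kb and 39.9 kb between them. SEMA4C had 189 ± 8.09 CPM with shTRPS1#1, 183 ± 0.968 CPM with shTRPS1#2 and 188 ± 4.89 CPM with shNT, and its log2 fold change lay in the intervals -0.06 to 0.07 and -0.11 to 0.03. The summed semaphorin level was 198.1 ± 3.51 RPKM with shTRPS1#1, 198.1 ± 0.368 RPKM with shTRPS1#2 and 200.9 ± 2.78 RPKM with shNT (SD, n = 3 each), so the rises and falls of single semaphorins left the family sum within the spread of the libraries.

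The 10 genes that did not pass the filter were EPHA6, EPHA8, EPHA10, EPHB6, PLXNA4, ROBO2, SEMA5A, SEMA5B, SLIT3 and UNC5A, with at most 19 reads in any library. SEMA5B, a transmembrane semaphorin, had 11, 9 and 19 reads with shTRPS1#1 and 4, 0 and 1 with shTRPS1#2, against 4, 1 and 1 with shNT. All shTRPS1#1 libraries were above the other 6. Tested without the filter, the log2 fold change of SEMA5B with shTRPS1#1 was 2.64 ± 0.542 (edgeR adjusted p = 4.77e-05), and under DESeq2 it was 2.71 ± 0.854 (adjusted p = 0.0214), at a level of a few reads per library. None of the other 9 was called in that unfiltered fit by edgeR.

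The promoter table held 58 of the 68 guidance genes. At least 1 GATA word was found in 11 of these 58 windows (19%) and in 25% of all 35116 windows of that length, and the E-box CAGCTG in 12 (20.7%) and in 17.9% of all. Member windows had a median of 66.2% G and C. These are matches of letters only, and no binding was measured.

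The guidance signal also depends on co-receptors and on proteins that carry it to the cytoskeleton, for which a list of 86 genes was drawn up by role. Of these, 79 were tested. The shTRPS1#1 comparison called 26 of them (32.9%), of which 15 were higher and 11 lower, where 13.4% of all genes tested were called. The shTRPS1#2 comparison called 31 (39.2%), of which 21 were higher and 10 lower, and 27 (34.2%) differed between the hairpins, beside 18.9% and 19.6% of all genes. Of protein-coding genes, 15.7%, 22% and 23.1% were called in these 3 comparisons. At a mean of at least 10 CPM these shares were 17.5%, 25.2% and 26%. In 16 of the 79 (20.3%) both hairpins gave a call in the same direction, 12 higher and 4 lower, beside 5.83% of all genes. The count of 16 became 12 to 15 when a library was left out. The list was drawn up with earlier results of these data known. Among the 14 Slit and Robo effectors, 4 (28.6%) were called with shTRPS1#1 and 5 (35.7%) with shTRPS1#2, all higher, where 7.1% and 9.01% of all genes were called higher. Of 12 ephrin and Eph effectors tested, 2 (16.7%, lower) and 1 (8.33%, higher) were called. Of 4 netrin and RGM co-receptors tested, 3 (75%) and 2 (50%) were called, all lower. Calls went both ways elsewhere, with shares of 44.4% and 66.7% for 9 adhesion co-receptors. For 19 semaphorin and plexin effectors the shares were 31.6% and 36.8%, and for 21 genes of shared cytoskeletal output 33.3% and 47.6%. SRGAP1, a GTPase regulator that binds Robo, averaged 51.4 ± 0.501 CPM with shTRPS1#1, 50.3 ± 2.36 CPM with shTRPS1#2 and 40.5 ± 1.32 CPM with shNT (SD, n = 3 each), with a log2 fold change of 0.34 ± 0.0468 (edgeR adjusted p = 1.13e-07) and 0.31 ± 0.0470 (edgeR adjusted p = 8.62e-07).

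Some genes of the shared cytoskeletal output and of semaphorin signalling also rose with both hairpins. CFL2, the muscle cofilin that severs actin filaments, averaged 187 ± 8.48 CPM with shTRPS1#1 and 181 ± 6.11 CPM with shTRPS1#2, against 149 ± 2.49 CPM with shNT, with a log2 fold change of 0.32 ± 0.0362 (edgeR adjusted p = 7.65e-10) and 0.28 ± 0.0363 (edgeR adjusted p = 3.61e-08). DPYSL5, a collapsin response mediator, averaged 40.8 ± 1.22 CPM with shTRPS1#1 and 32.02 ± 0.839 CPM with shTRPS1#2, against 24.5 ± 2.05 CPM with shNT, with a log2 fold change of 0.73 ± 0.0551 (edgeR adjusted p = 2.72e-15) and 0.38 ± 0.0573 (edgeR adjusted p = 7e-07). Log2 fold changes with shTRPS1#1 and with shTRPS1#2 were 0.58 and 0.24 for the actin-binding gene ABLIM3 and 0.33 and 0.31 for its relative ABLIM1. They were 0.43 and 0.62 for CDK5R1, the activator of CDK5, and 0.22 and 0.20 for the small GTPase gene MRAS. FLRT2, the adhesion protein that UNC5D binds, rose by 0.23 and 0.53, and its call with shTRPS1#1 was lost under limma with all 3 pseudocounts (adjusted p 0.0699 to 0.0751).

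The genes of repulsive guidance molecules, which bind neogenin, fell with both hairpins. RGMB averaged 422 ± 11.4 CPM with shTRPS1#1 and 427 ± 3.09 CPM with shTRPS1#2, against 480.1 ± 15.5 CPM with shNT, with a log2 fold change of -0.18 ± 0.0320 (edgeR adjusted p = 1.55e-05) and -0.17 ± 0.0320 (edgeR adjusted p = 4.79e-05). RGMA averaged 76.2 ± 0.631 CPM with shTRPS1#1 and 73.04 ± 2.71 CPM with shTRPS1#2, against 87.2 ± 3.84 CPM with shNT, with a log2 fold change of -0.19 ± 0.0403 (edgeR adjusted p = 0.000303) and -0.26 ± 0.0406 (edgeR adjusted p = 2.45e-06). NEO1, which encodes neogenin, the netrin and RGM receptor that these cells did express, averaged 7.995 ± 0.578 CPM with shTRPS1#1, 10.1 ± 0.501 CPM with shTRPS1#2 and 10.1 ± 0.497 CPM with shNT. Its log2 fold change was -0.33 ± 0.0885 (edgeR adjusted p = 0.00572) with shTRPS1#1 and 0.01 ± 0.0845 (edgeR adjusted p = 0.949) with shTRPS1#2.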

How the data were processed

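Poly(A) RNA was sequenced from 9 RD cell libraries, 3 for each hairpin, and the title of each library gave its group. Per the labels' protocols, extraction used phenol-chloroform, and an NEBNext Ultra II kit was run on 180 ng of RNA. The authors deposited whole-number read counts per gene without normalization, and RPKM values for the same genes. The deposited RPKM equalled counts over gene length and library total to a relative deviation of 7e-14. Per the submitters' processing notes, the tools were STAR 2.7.2b, featureCounts 1.6.5 and bcl2fastq 2.20.0.422, on GRCh38. As for the annotation release, strand setting and multi-mapped reads, no statement is given in the sources used here. Symbols were matched for 60357 of 60676 identifiers, and the 319 without one held 0.107% of counts. In GENCODE 29, from which coordinates were taken, 25 guidance genes share exon bases with another gene.

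The quasi-likelihood test of edgeR 4.0.16, under R 4.3.3, was run on the counts after its expression filter at a minimum of 10 counts, which kept 17014 genes, 13483 of them protein coding. A mean for each group was fitted to all 9 libraries with TMM factors (6 residual degrees of freedom), and p-values were adjusted by Benjamini-Hochberg over all genes tested, with calls under 0.05. CPM values use TMM factors and RPKM values do not. The standard error is the absolute log2 fold change over the square root of F, and intervals are 1.96 standard errors each way (95%), so both are approximate. The script was tested on simulated data. No library repeated another, since the chi-square per degree of freedom within groups was 1.27 to 2.84.

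The alternatives tried were RLE and upper-quartile factors, no filter, a mean of at least 1 CPM, DESeq2 1.42.0, limma 3.58.1 on log2(RPKM + a pseudocount of 0.1, 0.01 or 1), fits of the 6 libraries compared, a replicate block and leaving out each library. The guidance genes, the list of 86 partner genes, the marker lists and the tests were chosen with earlier results of these data known. Genes are named with all values if they were called against shNT with both hairpins, or with 1 hairpin and also between the hairpins, or led their family in RPKM. Partner genes are named if called with both hairpins in the same direction, at most 10 by the larger adjusted p. EPHA5, EPHB4, PLXNA1, EFNA2, PLXND1, SEMA4C, SEMA5B, SEMA6D, UNC5B and NEO1 were named with values outside that rule, after their values were seen. The levels of genes at 10 CPM or more were also compared after seeing the data. Promoters are those of RefSeq (GRCh38.p14).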

Additional observations from a re-analysis of the deposited data

Results flagged for a closer look

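In 7 guidance genes the effect of the hairpins differed, by a test of shTRPS1#2 against shTRPS1#1, in a way that set their direction or size against shNT apart. They are NTN1 (log2 difference 1.23 ± 0.0664 (edgeR adjusted p = 2.67e-20)), NRP1 (0.86 ± 0.0955 (edgeR adjusted p = 6.66e-10)), SLIT2 (0.48 ± 0.0376 (edgeR adjusted p = 1.8e-14)), UNC5D (0.40 ± 0.0365 (edgeR adjusted p = 2.5e-12)) and EPHA7 (0.26 ± 0.0369 (edgeR adjusted p = 3.39e-07)), which were called lower with shTRPS1#1 and higher with shTRPS1#2. NTN4 (-1.14 ± 0.0987 (edgeR adjusted p = 3.74e-13)) and SEMA3G (-1.29 ± 0.232 (edgeR adjusted p = 2.28e-05)) were called higher with shTRPS1#1 and differed by more than 1 log2 unit between the hairpins. TRPS1 itself had 57.8 ± 3.42 CPM with shTRPS1#1 and 57.4 ± 1.39 CPM with shTRPS1#2. In these groups of 3, no search was made for single libraries that stand apart, beyond leaving out each library in turn.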

How the results depend on the processing

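Of the 63 calls of guidance genes in the 3 comparisons, 41 were made with the same sign under all 19 alternatives, 22 were lost under at least 1, and 0 turned sign. DESeq2 lost 17, limma on log2(RPKM + 0.1) lost 17, and leaving out a library lost 20 at least once. The cause of these losses was not tested. Without a filter 3 genes were called in opposite directions, where the count reported is 5. DESeq2 gave 9 genes lower with shTRPS1#1 (reported 14), 1 called with both hairpins in the same direction (reported 4), 3 in opposite directions and 7 partner genes lower with shTRPS1#1 (reported 11). With limma at pseudocounts of 0.1, 0.01 and 1, guidance genes higher with shTRPS1#1 numbered 5, 5 and 6 (reported 12), those called with both hairpins in the same direction 2 each time and in opposite directions 3 each time. Partner genes numbered 6, 5 and 5 lower with shTRPS1#2 (reported 10) and 6, 7 and 6 lower with shTRPS1#2 than with shTRPS1#1 (reported 11).

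Leaving out each library in turn gave 7 to 14 guidance genes higher with shTRPS1#1, 4 to 7 higher with shTRPS1#2, 2 to 5 called with both hairpins in the same direction and 2 to 5 in opposite directions. Among partner genes it gave 7 to 11 lower with shTRPS1#1, 10 to 17 higher and 7 to 12 lower with shTRPS1#2 than with shTRPS1#1. The lowest of these 3 partner counts came without shTRPS1#1 replicate 3, without shTRPS1#1 replicate 3 and without shTRPS1#1 replicate 1.

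The labels number the libraries alike in every group. Deviations of same-numbered libraries correlated at -0.0161 to 0.0476 across genes, and those of differently numbered ones at -0.0558 to 0.0423. The number was not taken to pair them, and whether same-numbered libraries share a small effect was not tested. A replicate block lost 0 of the 63 calls and added PLXNB2 with shTRPS1#2 (log2 fold change -0.09, edgeR adjusted p = 0.034). Over all genes it called 1312 higher and 1193 lower with shTRPS1#1, where the fit reported called 1208 and 1077. More genes were called with the block in the other comparisons too. Other scaling factors moved the median of all genes by less than 0.1 on the log2 scale. The 10 guidance genes with at most 19 reads in any library did not pass the filter, so changes in them were not tested at this depth in the fit reported.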

Other observations

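Adhesion molecules that guidance receptors bind or work with were measured too, beyond those described above. FLRT3, a relative of FLRT2, averaged 8.62 ± 0.605 CPM with shTRPS1#1 and 9.14 ± 0.601 CPM with shTRPS1#2, against 6.24 ± 0.425 CPM with shNT (SD, n = 3 each), and rose with both hairpins (log2 fold change 0.46 ± 0.0974 (edgeR adjusted p = 0.000341) and 0.55 ± 0.0964 (edgeR adjusted p = 1.52e-05)). NRCAM, a cell adhesion molecule that joins neuropilin complexes, averaged 54.99 ± 1.88 CPM with shTRPS1#1 and 69.8 ± 3.28 CPM with shTRPS1#2, against 60.8 ± 1.34 CPM with shNT. It was called lower with shTRPS1#1 (log2 fold change -0.15 ± 0.0441 (edgeR adjusted p = 0.0178)) and higher with shTRPS1#2 (0.20 ± 0.0428 (edgeR adjusted p = 0.000376)). L1CAM and DAG1, the dystroglycan gene, were lower with shTRPS1#2 (log2 fold change -0.25 ± 0.0391 (edgeR adjusted p = 1.44e-06) and -0.24 ± 0.0332 (edgeR adjusted p = 9.74e-08)), while their values with shTRPS1#1 were 0.05 ± 0.0383 (edgeR adjusted p = 0.446) and -0.03 ± 0.0330 (edgeR adjusted p = 0.664). VAV3 and TIAM1, which activate Rac downstream of Eph receptors, were lower with shTRPS1#1 (log2 fold change -0.31 ± 0.0478 (edgeR adjusted p = 2.09e-06) and -0.31 ± 0.0562 (edgeR adjusted p = 4.23e-05)), beside -0.06 ± 0.0467 (edgeR adjusted p = 0.462) and -0.01 ± 0.0545 (edgeR adjusted p = 0.915) with shTRPS1#2. These 6 genes were picked after their values were seen.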
